A study of Mus musculus with 2 samples.

Results

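The epithelial-mesenchymal transition (EMT) is the switch by which cells that adhere to each other in a sheet loosen their junctions and take on the shape and motility of mesenchymal cells. E-cadherin (Cdh1) and EpCAM (Epcam) hold epithelial cells together, whereas N-cadherin (Cdh2), vimentin (Vim) and fibronectin (Fn1) are the classical mesenchymal markers. Transcription factors of the SNAIL (Snai1, Snai2), ZEB (Zeb1, Zeb2) and TWIST (Twist1) families drive the switch, and SNAIL and ZEB proteins bind E-box sequences and repress Cdh1. Mouse embryonic stem cells (mESCs) grow as compact colonies that depend on E-cadherin, and EMT takes place in the embryo when cells leave the epiblast at gastrulation.

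These 10 genes were picked by gene symbol, and each was found once among the 23889 symbols of both deposited files. The RNA came from E14 cells, a feeder-free mESC line that the labels trace to the 19/Ola mouse, kept in medium with 15% FBS and 1000 U/ml LIF, the cytokine that sustains self-renewal. One library was made from cells transfected with a control shRNA (shCon, genotype "Normal") and 1 from cells transfected with an shRNA against the deubiquitinase USP21 (shUSP21, genotype "USP21 knockdown"), both harvested 3 days later. The comparison addresses how loss of USP21 alters gene expression in mESCs. The labels give neither which USP21 shRNA was used nor the share of cells transfected. With 1 library per group there was no test, no error and no way to separate the shRNA from differences between cultures, and every difference below is a description of these 2 libraries.

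Values are FPKM, fragments scaled to transcript length and sequencing depth, so that levels can be compared between genes. Differences are given as the log2 ratio of shUSP21 over shCon after adding 0.1 FPKM to each value, which understates the change of low genes. Usp21 itself was at an FPKM of 26.2 in shCon and 3.49 in shUSP21, a log2 ratio of -2.87, so the libraries matched their labels. The 3 highest mESC markers were Dppa5a at 1849 in shCon and 1285 in shUSP21, Pou5f1 at 868 and 752, and Nanog at 467 and 258. Of all genes past an FPKM of 1 in a library, 49.6% had a log2 ratio below 0. Of 12 mESC markers 11 had a log2 ratio below 0, down to -0.97 for Tfcp2l1, with a median of -0.26 over the list. With equal sums of FPKM 8 were below 0 with a median of -0.089, where that of all genes past an FPKM of 1 was 0.18. Over the 11927 genes that reached an FPKM of 1 in either library the median log2 ratio was 0.003, with a 10th percentile of -0.46 and a 90th of 0.51. The low FPKM values moved in steps of 1 fragment, from which the shCon library was about 1.24 times as deep as the shUSP21 library.

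In the control cells the 10 genes covered more than 3 orders of magnitude, with both epithelial and mesenchymal markers at high levels. Vim was the highest in both libraries, above 97.9% of all symbols in shCon, followed by Fn1, Cdh1 and Epcam. Zeb1 lay well below them, and Snai1, Cdh2, Twist1, Snai2 and Zeb2 followed in that order in shCon. In shUSP21 Cdh2 and Twist1 stood above Snai1, with 2.38 and 1.99 against 1.95, and the other genes kept their places. Without replicates it cannot be said which neighbours in this order differ beyond their spread.

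**Figure D1:**
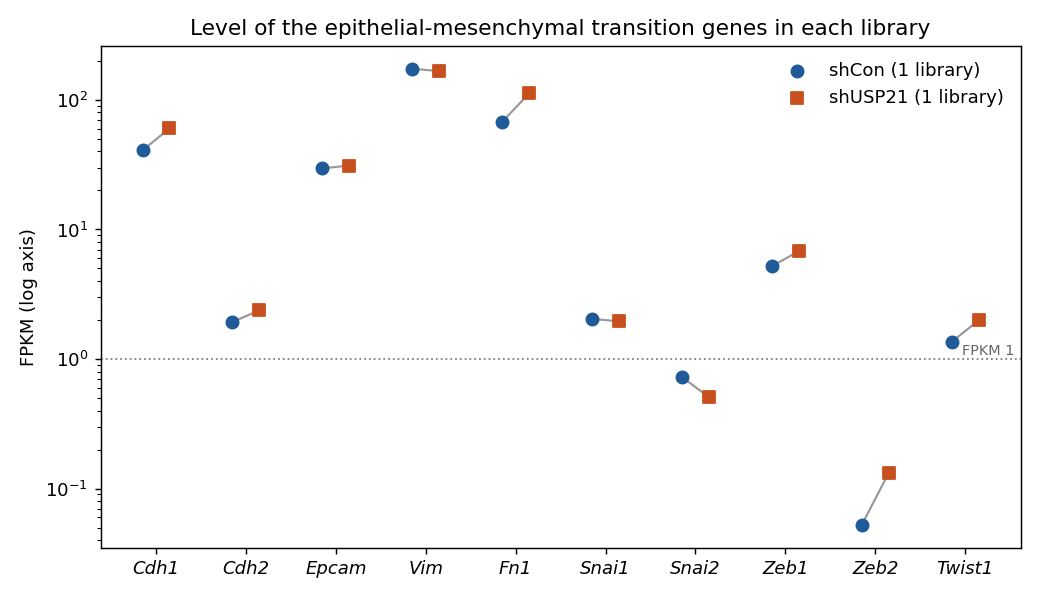
FPKM (log axis) of the 10 EMT genes in the shCon library (circles) and the shUSP21 library (squares), 1 library each, with no error bars because there were no replicates. Vim, Fn1, Cdh1 and Epcam sit between 29.6 and 174 in both libraries, and Snai2 and Zeb2 lie under an FPKM of 1 in both.

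Of the 8 genes that reached an FPKM of 1 in either library, 0 were at least 2-fold higher and 0 at least 2-fold lower in shUSP21, where 2.30% of all genes past the same level were higher and 2.03% were lower. At 1.5-fold 1 of the 8 genes, Fn1, was higher and 0 were lower, against 7.77% and 6.46% of all genes. The median log2 ratio of the 10 genes was 0.33, with 7 above 0 and 3 (Vim, Snai1 and Snai2) below. The range ran from -0.44 for Snai2 to 0.73 for Fn1. Vim and Snai1 were above 0 when both libraries were set to equal sums of FPKM, which put the median of all genes at 0.18. A lower value in such bulk RNA can mean fewer cells of a type or less RNA per cell, and these cannot be told apart here.

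Cdh1 (chromosome 8) encodes E-cadherin, the calcium-dependent adhesion protein of epithelia and of mESC colonies. Its FPKM was 40.7 in shCon and 60.4 in shUSP21, so the knockdown library was the higher by a log2 ratio of 0.57. Among the 500 genes nearest to it in level, the 10th percentile of the log2 ratio was -0.33 and the 90th was 0.29. Cdh1 thus lay above the central range of genes at its level. After correction for GC content and transcript length the log2 ratio of Cdh1 was 0.48.

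Cdh2 (chromosome 18) encodes N-cadherin, the cadherin of mesenchymal and neural cells that takes the place of E-cadherin in the classical cadherin switch. It was at 1.93 in shCon and 2.38 in shUSP21, a log2 ratio of 0.29 that lay within the 10th to 90th percentile of genes at its level (-0.53 to 0.66). Cdh1 was 21.1 times as high as Cdh2 in shCon and 25.3 times in shUSP21. In shUSP21 the balance of both cadherins lay further toward E-cadherin, by 0.26 on the log2 scale without a pseudocount and 0.27 with it. Scaling of the libraries cancels from the first value and nearly from the second. Both are small beside the range of genes at the level of Cdh2. The third classical cadherin measured, P-cadherin (Cdh3), was at 7.62 and 9.39, a log2 ratio of 0.30.

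Epcam (chromosome 17) encodes the epithelial cell adhesion molecule, which is also used as a surface marker of undifferentiated mESCs. Its FPKM was 29.6 in shCon and 31.2 in shUSP21, a log2 ratio of 0.073. The 2 libraries were close for this gene, and Cdh1 was 1.38 times as high as Epcam in shCon and 1.94 times in shUSP21.

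SNAIL and ZEB proteins bind the E-box CACCTG, which reads CAGGTG on the other strand, and the promoters of the genes were searched for it on both strands. RefSeq windows of 300 bases (GRCm38.p6), 250 before and 50 after an annotated start, were matched for 5 of the 10 genes, Vim, Zeb2, Snai1, Twist1 and Epcam, as 8 windows. Of these 8 windows 2 held the E-box, 1 of Epcam and 1 of Snai1, against 20.2% of all 32851 windows. The stretches around the boxes are shown because they carry the letters that EMT repressors recognise, with the E-box in capitals, and a match describes the sequence without showing that a factor binds there. The first box of Epcam begins 187 bases before the start (chr17:87635780-87635809, plus strand) and the second 19 bases before it (chr17:87635948-87635977, plus strand). The box of Snai1 begins 126 bases before the start (chr2:167538057-167538086, plus strand).
Epcam, first E-box: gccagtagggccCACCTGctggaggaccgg
Epcam, second E-box: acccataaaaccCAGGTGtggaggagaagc
Snai1 E-box: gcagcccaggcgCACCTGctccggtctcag

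Vim (chromosome 2) encodes vimentin, the intermediate filament protein of mesenchymal cells. It was at 174 in shCon and 167 in shUSP21, a log2 ratio of -0.061, so that one of the most abundant transcripts of the set was nearly level between the libraries. The sign depended on scaling, since with both libraries set to the same sum of FPKM the log2 ratio was 0.12. That scaling put the median of all genes at 0.18, so Vim stayed below it. With the median of all genes set to 0 the log2 ratio of Vim was -0.064. Vim was 4.27 times as high as Cdh1 in shCon and 2.77 times in shUSP21.

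Fn1 (chromosome 1) encodes fibronectin, a matrix glycoprotein bound by integrins. It had the highest log2 ratio of the 10 genes, 0.73, with an FPKM of 67.7 in shCon and 112 in shUSP21. Genes at its level ran from -0.41 to 0.21 between the 10th and the 90th percentile, and Fn1 lay above them. Its transcript is the longest of the set, with 8315 bases in 46 exons, and the 500 genes nearest in length had a median log2 ratio of 0.24 and a 90th percentile of 0.69. With GC content and length corrected its log2 ratio was 0.46. Apol7d, annotated on the opposite strand over Fn1 exons, was at 0.144 and 0.248. Fn1 and Vim, both counted as mesenchymal markers, therefore differed from each other, and the ratio of Fn1 to Vim was 0.389 in shCon and 0.673 in shUSP21.

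**Figure D2:**
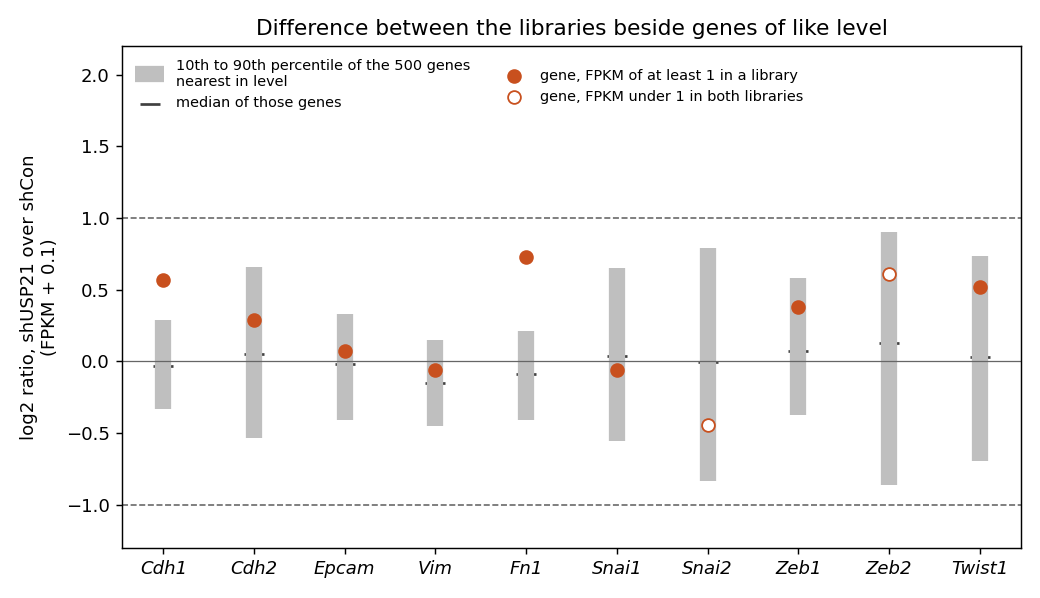
Log2 ratio of shUSP21 over shCon (FPKM + 0.1) for the 10 EMT genes (points, open where FPKM was under 1 in both libraries), with the 10th to 90th percentile (grey bars) and the median (short lines) of the 500 genes nearest to each in level. Dashed lines mark 2-fold. Cdh1 at 0.57 and Fn1 at 0.73 lie above the grey bars, and the other 8 genes lie within them.

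Snai1 (chromosome 2) encodes SNAIL, a zinc finger repressor of Cdh1 that is needed for EMT at gastrulation. Its FPKM was 2.04 in shCon and 1.95 in shUSP21, a log2 ratio of -0.063. As for Vim the sign turned with scaling, to 0.11 with equal sums, where the median of all genes was 0.18. With that median set to 0 the log2 ratio of Snai1 was -0.066. Snai2 (chromosome 16) encodes SLUG, the related factor of neural crest and mesenchyme. It was at 0.726 in shCon and 0.508 in shUSP21, a log2 ratio of -0.44, the lowest of the 10 genes. Genes at the level of Snai2 ran from -0.83 to 0.79, so this value lay well within their spread.

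The low genes rest on few fragments. The product of FPKM and transcript length peaked, among the lowest genes, at the worth of 1 fragment, and the number of fragments behind a gene was estimated from that. On this rough scale Snai2 corresponded to about 44 fragments in shCon and 25 in shUSP21, and Zeb2 to about 8 and 17. For Snai1 the estimates were about 100 and 76. Cdh1, in contrast, corresponded to about 5465 and 6395. Since the annotation behind the FPKM values is not given in the sources used here, no interval was drawn from these estimates.

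Zeb1 (chromosome 18) encodes a zinc finger and homeodomain repressor of epithelial genes, and was the most abundant of the 5 EMT transcription factors. Its FPKM was 5.21 in shCon and 6.80 in shUSP21, a log2 ratio of 0.38. This lay within the range of genes at its level, from -0.38 to 0.58, and was 0.26 with GC content and length corrected. Zeb2 (chromosome 2), the paralogue that is prominent in neural crest and neural cells, was at 0.0525 in shCon and 0.132 in shUSP21. Its log2 ratio of 0.61 moved to 0.11 with a pseudocount of 1 FPKM and to 1.19 with 0.01, so that for Zeb2 the size depended on the pseudocount. With no pseudocount Zeb2 was 2.52 times as high in shUSP21, at a level under the FPKM of 1 needed to be counted. The antisense gene Zeb2os, which overlaps Zeb2 exons, was listed at 0 in both libraries.

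Twist1 (chromosome 12) encodes a basic helix-loop-helix factor of head mesenchyme and mesoderm. It was at 1.36 in shCon and 1.99 in shUSP21, a log2 ratio of 0.52. Genes at this level ran from -0.69 to 0.74, and Twist1 lay within this range. Its transcript is short, with 1628 bases, and the 500 genes nearest to it in length had a median of -0.12 and a 90th percentile of 0.35, below the value of Twist1. Of the 5 EMT transcription factors, 3 (Zeb1, Zeb2 and Twist1) had a log2 ratio above 0 and 2 (Snai1 and Snai2) below 0, and each of the 5 lay within the range of genes at its own level.

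Transcript length moved with the differences over all genes. Across 11378 genes with an FPKM of at least 1 and a transcript in GENCODE M21 the log2 ratio had a Spearman rho of 0.32 with length, a description across genes, which are not independent replicates. The fifth of genes with the shortest transcripts had a median log2 ratio of -0.16 and the fifth with the longest of 0.17. The 5 genes of the set with the longest transcripts, Cdh1, Cdh2, Fn1, Zeb1 and Zeb2, all had log2 ratios above 0, and of the other 5 only Epcam and Twist1 did. Less the median of the 500 genes nearest in length, the log2 ratio was 0.50 for Cdh1, 0.49 for Fn1, 0.21 for Cdh2, 0.24 for Zeb1 and 0.48 for Zeb2. The highest value on this scale was that of Twist1, 0.64, and Epcam, Snai1, Vim and Snai2 were at 0.11, 0.046, -0.0052 and -0.40. Of the 10 genes 4 (Cdh1, Fn1, Zeb2 and Twist1) lay above the 90th percentile of the genes nearest in length. Those neighbours were of any level from an FPKM of 1 in a library, whereas Zeb2 and Twist1 rest on few fragments. Zeb2 had about 8 and 17 and Twist1 about 67 and 77. Both lay within the range of genes at their own level, -0.86 to 0.90 for Zeb2 and -0.69 to 0.74 for Twist1. With GC content and length corrected the log2 ratio was 0.20 for Cdh2, 0.52 for Zeb2 and 0.58 for Twist1. The part of the length trend in these values was not tested beyond these comparisons.

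**Figure D3:**
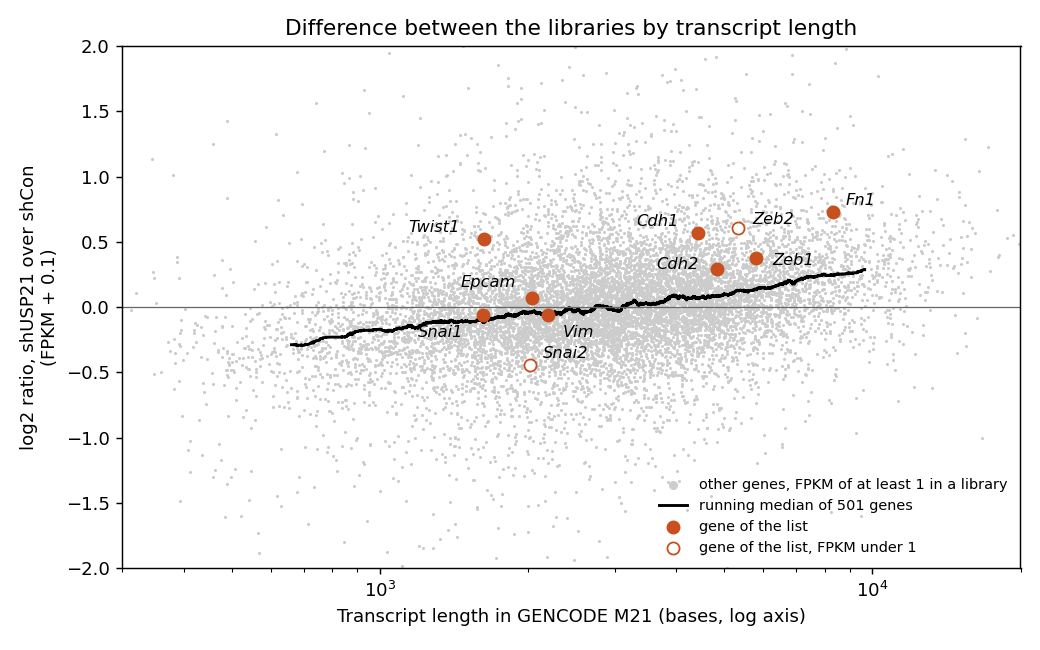
Log2 ratio of shUSP21 over shCon (FPKM + 0.1) against transcript length in bases (log axis) for genes with an FPKM of at least 1 in a library (grey, 59 genes outside the axes not drawn), their running median over 501 genes (line) and the 10 EMT genes (large points, open where FPKM was under 1 in both libraries). The running median climbs with length, and the 5 EMT genes with long transcripts all lie above it.

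Other genes of the epithelial state were on the whole lower in shUSP21, in contrast to Cdh1. Of 32 genes of tight junctions, desmosomes and keratin filaments 28 passed an FPKM of 1, and 20 of these had a log2 ratio below 0, with a median of -0.27, where 49.6% of all genes past this level were below 0. In this list 0 genes were 2-fold higher and 3 were 2-fold lower, against 2.30% and 2.03% of all genes. They were Krt19, a keratin of simple epithelia (6.36 in shCon and 2.13 in shUSP21, log2 ratio -1.53), Cldn7, a claudin of the tight junction (4.80 and 2.15, -1.12), and Tjp3, a tight junction scaffold (2.24 and 1.05, -1.03). With equal sums of FPKM, a pseudocount of 1 or an FPKM of at least 5, 1 of the 3, Krt19, was still counted as 2-fold lower, and Cldn7 and Tjp3 were not. Among the highest genes of the list, Spint2, a membrane protease inhibitor, was at 97.7 in shCon and 99.8 in shUSP21, and plakoglobin (Jup) at 63.9 and 66.4. With equal sums of FPKM the median of the list was -0.091, where that of all genes was 0.18, and with GC content and length corrected it was -0.25.

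Among 12 regulators of the epithelial state, 8 passed an FPKM of 1. Of these 6 were below 0, where 49.6% of all genes past this level were. Their median was -0.34, and -0.16 with equal sums of FPKM, where that of all genes was 0.18. In this list 0 genes were 2-fold higher and 1 was lower, against 2.30% and 2.03% of all genes. The lower gene was Elf3, an ETS factor of epithelia, at 32.8 in shCon and 14.7 in shUSP21, a log2 ratio of -1.16, and with equal sums of FPKM 0 genes of this list were 2-fold lower. Klf5 and Klf4, Krüppel-like factors shared by epithelia and mESCs, were at 346 and 85.0 in shCon and at 252 and 76.5 in shUSP21.

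Among 26 further mesenchymal genes 20 passed an FPKM of 1, and 10 lay above 0 and 10 below, with a median of 0.029. Of these, 4 were 2-fold higher and 1 was 2-fold lower, where 2.30% and 2.03% of all genes past this level were. Tagln and Acta2, actin-binding and actin proteins of smooth muscle, went from 1.41 to 7.54 (log2 ratio 2.34) and from 0.177 to 1.02 (2.02). Sparc, a secreted matrix protein, was at 94.9 and 191 (1.01), and the matrix protease Mmp9 at 0.404 and 1.28 (1.45). Thy1, a surface glycoprotein of fibroblasts and neurons, was the lower gene, at 17.3 and 5.29 (-1.69). Spp1, the secreted protein osteopontin, was the highest of the list in shCon at 283 and stood at 198 in shUSP21, and galectin 1 (Lgals1) was at 39.7 and 39.1. Members of this list thus lay in both directions. Acta2, Tagln and Mmp9 were low genes in shCon, and Acta2 and Mmp9 reached an FPKM of 1 in shUSP21 only. With a pseudocount of 1 or an FPKM of at least 5 the genes 2-fold higher were 2, Tagln and Sparc. The median of the list was 0.20 with equal sums of FPKM, where that of all genes was 0.18. With GC content and length corrected it was -0.12.

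**Figure D4:**
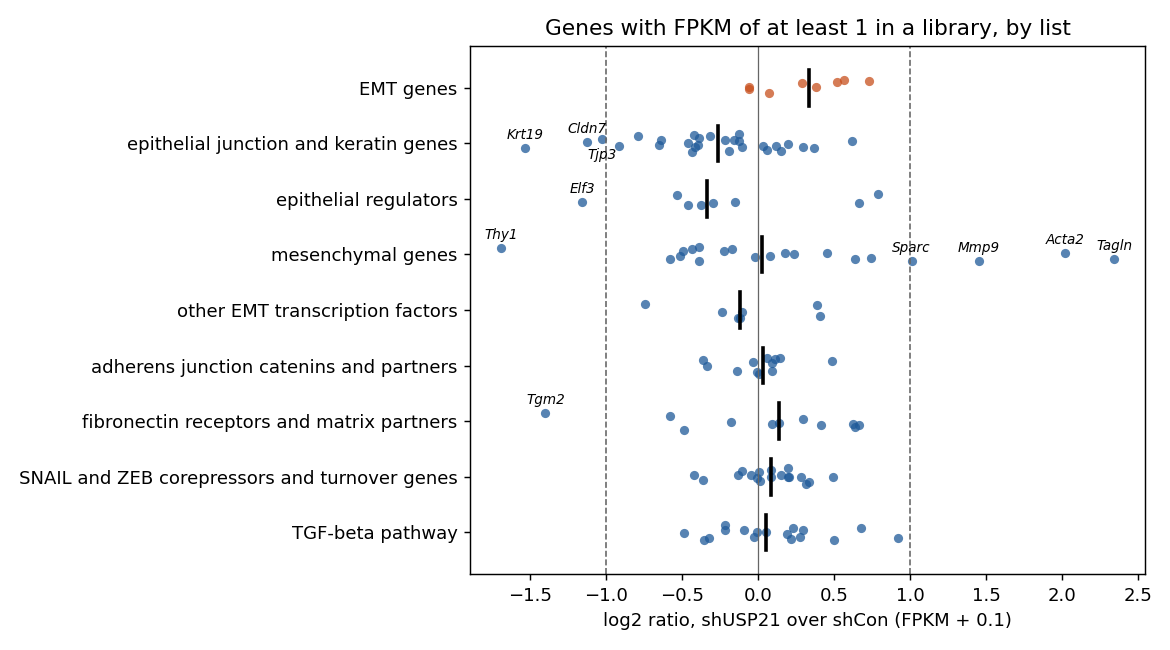
Log2 ratio of shUSP21 over shCon (FPKM + 0.1) for each gene with an FPKM of at least 1 in a library (points), by list, with the list median (black bar) and 2-fold marked by dashed lines, and genes past 2-fold named. The EMT genes all lie inside the 2-fold lines, the epithelial junction and keratin genes have a median of -0.27, and the mesenchymal genes spread from Thy1 at -1.69 to Tagln at 2.34.

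The partners of E-cadherin lay in both directions. Of 15 catenins, nectins and actin linkers 12 passed an FPKM of 1, with 0 called in either direction and a median of 0.030. Among all genes past this level 2.30% were 2-fold higher and 2.03% lower. Beta-catenin (Ctnnb1), which binds the cadherin tail, was at 312 and 283, alpha-catenin (Ctnna1), which links it to actin, at 193 and 194, and the actin cross-linker Actn4 at 193 and 189. The ends among the 12 genes past an FPKM of 1, chosen after their values were seen, were nectins. They were Pvrl2 at 43.1 and 60.4 (log2 ratio 0.49) and Pvrl1 at 15.3 and 11.9 (-0.36).

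The receptors and partners of fibronectin had a median log2 ratio of 0.14 over the 11 of 16 genes past an FPKM of 1. The median was 0.31 with equal sums of FPKM, where that of all genes was 0.18. With GC content and length corrected it was 0.13. In this list 0 genes were 2-fold higher and 1 was lower, against 2.30% and 2.03% of all genes. Integrin beta 1 (Itgb1), a subunit of the classical fibronectin receptor, was at 47.7 in shCon and 63.6 in shUSP21, and its alpha subunit Itga5 at 17.5 and 27.3 (log2 ratio 0.64). The subunits Itgav and Itgb3, which also form receptors for fibronectin, were lower, at 5.88 and 4.16 (-0.49) and at 3.73 and 2.46 (-0.58). These 3 subunits, Itga5, Itgav and Itgb3, were chosen after their values were seen. The proteoglycan co-receptor Sdc4 was at 38.7 and 61.4 (0.66), and the adaptor paxillin (Pxn) at 24.1 and 26.5. Tgm2, a transglutaminase that cross-links matrix proteins, was the gene 2-fold lower, at 7.80 and 2.90 (-1.40).

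The lists of SNAIL and ZEB corepressors, of the TGF-beta pathway and of other EMT transcription factors held 0 genes past 2-fold. Only genes with an FPKM of at least 1 were counted, and of all such genes 2.30% were higher and 2.03% lower. Of 18 corepressors and turnover factors of SNAIL and ZEB all 18 passed an FPKM of 1, with a median of 0.083. The deacetylases Hdac1 and Hdac2, which SNAIL recruits, were at 155 and 107 in shCon and at 154 and 99.8 in shUSP21, and casein kinase Csnk1a1 was at 112 and 124. The TGF-beta pathway, the main signal that induces EMT, had a median of 0.050 over 17 of 20 genes. Its highest genes were the Smad corepressor Tgif1 at 110 and 87.6, the inhibitor Smad7 at 42.4 and 33.1 and the corepressor Ski at 32.2 and 37.4. With equal sums of FPKM 1 gene of this list was 2-fold higher, the ubiquitin ligase Smurf1, at 6.97 and 13.3. That scaling called 3.86% of all genes higher. Of 15 other EMT transcription factors 7 passed an FPKM of 1, with a median of -0.12. Tbx3 was at 70.6 and 64.9, Tcf3, an E-box factor, at 47.4 and 43.2, and the chromatin protein Hmga2 at 11.2 and 9.50. The precursors of 6 microRNAs that repress ZEB factors (the miR-200 family and miR-205) were listed at 0 in both libraries, and hairpins this short are not expected to be measured by such RNA-seq.

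Vim, Fn1 and Sparc are also expressed by primitive endoderm, a cell type that arises in mESC cultures, and its markers were present. All 12 markers of this type passed an FPKM of 1, and their summed FPKM was 282 in shCon and 402 in shUSP21. Sparc made up most of that difference, since the other 11 summed to 187 and 210. Of the 12, 8 had a log2 ratio above 0 and 4 below, with a median of 0.17. Among all genes past an FPKM of 1, 50.4% were above 0. The defining transcription factors Gata4 and Gata6 were at 5.70 and 8.60 in shCon and at 5.78 and 10.8 in shUSP21. The 4 below 0 were Sox17 (4.02 and 3.54), Foxa2 (1.59 and 1.35), Dab2 (23.1 and 16.4) and Sox7. Sox7 was 2-fold lower, at 4.68 and 1.97. Of 12 fibroblast markers 10 were under an FPKM of 1 in both libraries, with Col3a1 at 0.0043 and 0.0052 and Lum and Prrx1 listed at 0, and the summed FPKM of the 12 was 20.4 and 7.97, most of it Thy1. Of 12 primitive streak and mesoderm markers 4 passed an FPKM of 1, with a median log2 ratio of -0.10, and all 12 summed to 6.32 and 6.69. Hand1 was 2-fold higher, at 0.403 and 1.25, and reached an FPKM of 1 in shUSP21 only. Among all genes past this level 2.30% were 2-fold higher and 2.03% were 2-fold lower. Mixl1 (log2 ratio -0.70) and Mesp2 (-0.41) were lower in shUSP21, and Eomes (0.20) was higher. Of 12 neural progenitor markers 4 passed an FPKM of 1, with 0 past 2-fold and a median log2 ratio of 0.14. The sum of the 12 was 51.2 and 35.3, most of it Tubb3 (38.5 and 20.4). Ncam1 was also lower in shUSP21 (4.29 and 3.80), whereas Sox1 (6.08 and 8.30) and Nes (1.71 and 2.42) were higher. The part of these cell types in the values of Fn1, Vim and Cdh1 was not tested.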

How the data were processed

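RNA of E14 cells was sequenced from 1 shCon and 1 shUSP21 library. The files deposited by the authors list an FPKM for each gene symbol, and the submitters' processing notes name CASAVA 1.8.2, TopHat2 2.0.14, Cufflinks 2.2.1 and mm9, without the annotation. No scaling between libraries beyond FPKM is stated, and no counts were used. Groups came from the sample titles.

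The log2 ratio was computed with a pseudocount of 0.1 FPKM, and genes reaching an FPKM of 1 in either library were counted at 2-fold. With 1 library per group no test was run. Genes at like level were the 500 nearest in mean log2(FPKM + 0.1) among genes with at least 0.1 in a library. Genes nearest in length were the 500 nearest in log2 length among genes with an FPKM of at least 1 in a library. Length, GC content and chromosomes were read from the transcript of each GENCODE M21 (GRCm38) gene that had the longest coding sequence, which matched 95.4% of the genes counted. At most 2.92% of the 31-base words of a gene of the set (Snai2) occurred in transcripts of other genes. The lowess correction used a span of 0.3. The scripts were tested on simulated data. The software was pandas 2.3.3 and numpy 2.4.6 under Python 3.11.15, with statsmodels 0.14.6 for lowess, scipy 1.17.1 for density peaks and matplotlib 3.10.9 for plots.

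The 10 genes and the lists were chosen with earlier results of these data known. Named from each list were the genes past 2-fold and the 3 highest in shCon, not all of which are given, and any other gene named was chosen after its values were seen.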

Additional observations from a re-analysis of the deposited data

How the results depend on the processing

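With 1 library per group the spread between cultures is unknown, and depth limits Snai2, Zeb2, Twist1 and Snai1 most. No paired analysis was possible because each group has 1 library. The counts of EMT genes past 2-fold stayed at 0 with each pseudocount, scaling, correction and filter changed alone, and the 1.5-fold threshold gave 1 (Fn1). A pseudocount of 0.01 together with no filter on level, chosen after seeing the data, gave 1 higher (Zeb2). The median log2 ratio of the 10 genes ran from 0.16 (pseudocount 1) to 0.51 (equal sums of FPKM, which shifts the median of all genes to 0.18 and calls 3.86% of genes higher and 1.33% lower). Vim and Snai1 changed sign with equal sums, and the other 8 genes kept theirs under the other pseudocounts, scalings and the correction for GC content and length. Of the 151 genes in the other 8 lists, 4 were 2-fold higher and 6 lower. Not all 151 passed an FPKM of 1, and of all genes that did 2.30% were higher and 2.03% lower. The higher count was 2 with a pseudocount of 1 and 2 at an FPKM of at least 5. The lower count was 3 with equal sums. At 1.5-fold the counts were 13 and 11, where 7.77% and 6.46% of all genes past an FPKM of 1 were called.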
